A study of Mus musculus with 6 samples.

Results

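Chemokines are small secreted proteins that direct the movement of cells, and their receptors are G protein-coupled receptors carried mainly by leukocytes, some of them also by endothelial and other tissue cells. CC and CXC chemokines are named for the spacing of their first cysteines, and many ligands share a receptor. In skin, keratinocytes, fibroblasts and vessels supply ligands under resting conditions, macrophages and other cells supply further ligands when they are stimulated, and lymphatic vessels attract dendritic cells and lymphocytes with CCL21. Atypical receptors, among them ACKR1 on venular endothelium, bind chemokines without G protein signalling.

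The chemokine genes were taken as every row whose symbol is Ccl, Cxcl, Ccr or Cxcr followed by a number and at most 1 letter, leaving out Ccl21a. This gave 50 of 19131 genes, of which 34 encode ligands and 16 receptors. A filter of 10 or more estimated reads in 3 or more libraries left 17 ligands and 11 receptors for testing. Ccl21c and Cxcr3 reached 10 reads in only 1 knockout library but in all 3 control libraries.

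The 6 libraries are bulk RNA-seq of whole mouse skin at embryonic day 17.5 on the C57BL/6N background. The Tie1 knockout group (titled Tie1ECDKO, 3 libraries) was compared with the control group (titled Tie1ECDWT, 3 libraries). TIE1 is a receptor tyrosine kinase found mainly on endothelium, and the series' title asks about its part in sprouting and vein assembly together with TIE2. The labels say neither in which cells Tie1 was lost nor whether each library is a different embryo, so p-values measure the spread between these samples only.

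Each library held 19826856 to 20591164 estimated reads. Tie1 had 84, 53 and 46 reads in the knockout libraries against 1187, 1023 and 1215 in the control libraries, a log2 fold change of -4.20 (edgeR adjusted p = 0.00383, SE 0.23), so the libraries matched their labels. Marker lists of keratinocytes, dermal fibroblasts, endothelium and macrophages were all detected. Markers of neutrophils and B cells were low: the 7 neutrophil markers summed to 1.75 to 19.0 CPM in knockout and 3.52 to 6.61 CPM in control libraries, and the 5 B cell markers to 2.16 to 2.99 CPM in knockout and 2.76 to 3.36 CPM in control libraries. Ly6g, Elane, Ms4a1 and Cd207 had 3 or fewer reads in every library. Knockout 1 and control 1 stood apart from the other libraries in hair follicle markers (5 genes, 406 CPM in knockout 1 and 466 CPM in control 1, against 758 to 917 CPM in the other libraries). Hoxc10, which marks position along the body, had 12.5, 17.0 and 18.7 CPM in knockout libraries against 16.4, 6.09 and 1.23 CPM in control libraries. In whole skin, fewer cells of a type and less RNA per cell cannot be told apart.

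No chemokine ligand or receptor passed an adjusted p under 0.05 in edgeR's quasi-likelihood test, in which 24 of 15086 genes (0.159%) passed, 13 higher (0.0862%) and 11 lower (0.0729%). At an unadjusted p under 0.05 there were 4 of 17 ligands (23.5%) and 0 of 11 receptors, against 7.40% of all genes tested. Of these 4, Ccl2 and Ccl3 were on the higher side in knockout skin (2 of 17, against 4.07% of all genes) and Ccl21c and Cxcl9 on the lower side (2 of 17, against 3.33%). Ccl21c reached 10 reads in 1 knockout library and in 3 control libraries, so it was tested through the group where it was higher. It is counted here and among the ligands without overlap below. The knockout and control libraries did not overlap for these 4 ligands and Ccl25, 5 of 17 ligands (29.4%), and overlapped for all 11 receptors, against 13.8% without overlap among all genes. Of the 5, 2 were higher (7.03% of all genes) and 3 lower (6.77%). DESeq2 called 1 ligand, Ccl2 (adjusted p = 0.028), and no receptor, against 1.41% of the genes it tested, and limma-voom called neither a ligand nor a receptor. The median log2 fold change was -0.0881 for ligands and -0.0472 for receptors, beside 0.00379 for all genes, and 13 of 17 ligands and 10 of 11 receptors lay within 0.5 of 0 on the log2 scale. Whether ligands differ from receptors, or either from other genes, was not tested.

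**Figure D1:**
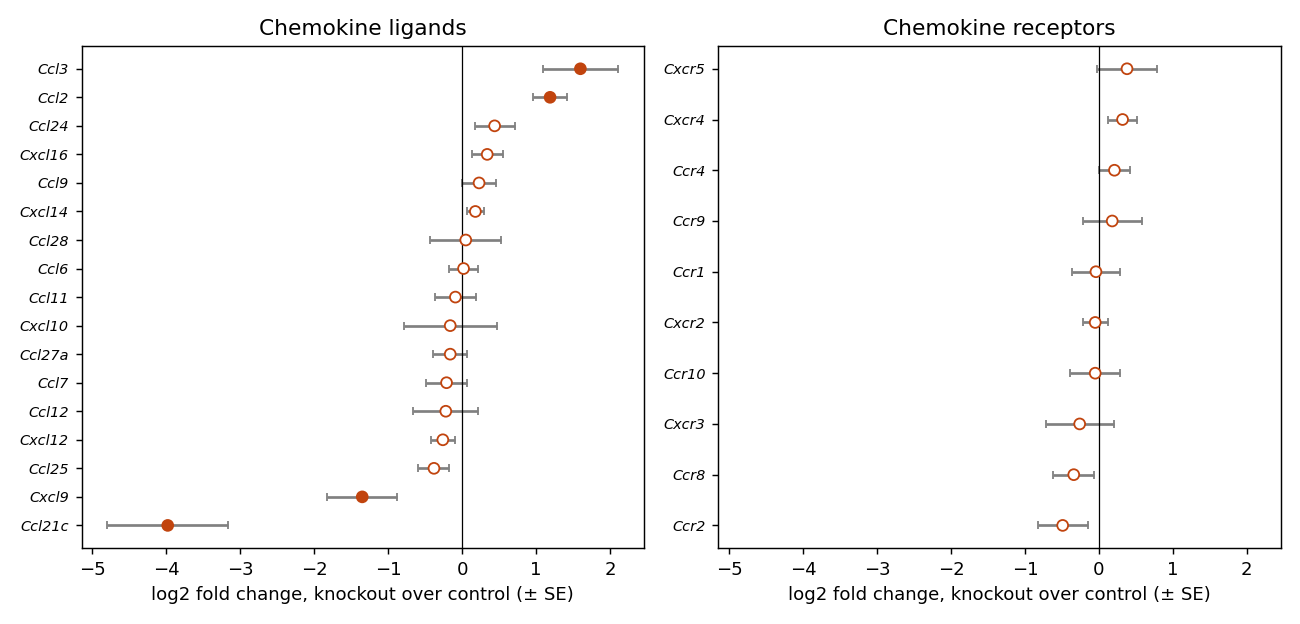
Log2 fold change of the 17 tested chemokine ligands (left) and of 10 of the 11 tested receptors (right), Tie1 knockout over control, with bars of 1 standard error; filled points had an unadjusted p under 0.05 in edgeR's quasi-likelihood test. Ligands range from -3.98 for Ccl21c to 1.60 for Ccl3, and the 10 receptors shown from -0.49 for Ccr2 to 0.38 for Cxcr5.

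The sequences just before the start sites of 3 ligand genes are shown, because Ccl3 and Cxcl9 are among the 4 ligands above and Cxcl10 is the neighbour of Cxcl9 and shares its receptor. They are the 250 bases before the start in the RefSeq table of GRCm38.p6, on the minus strand, written 5′ to 3′. Bases shortly after that start were found near the beginning of an annotated transcript for Cxcl9 and Cxcl10 but not for Ccl3. The start of Ccl3, and so its window, is therefore less certain. Ccl3 lies at chr11:83649379-83649628, Cxcl9 at chr5:92328080-92328329 and Cxcl10 at chr5:92348890-92349139. Capitals mark matches to 6 short motifs searched on both strands, which did not overlap one another here.
Ccl3: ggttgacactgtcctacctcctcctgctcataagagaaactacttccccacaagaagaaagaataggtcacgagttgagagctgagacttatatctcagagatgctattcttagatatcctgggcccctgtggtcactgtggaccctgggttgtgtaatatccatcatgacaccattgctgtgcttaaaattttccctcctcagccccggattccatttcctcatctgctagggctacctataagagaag
Cxcl9: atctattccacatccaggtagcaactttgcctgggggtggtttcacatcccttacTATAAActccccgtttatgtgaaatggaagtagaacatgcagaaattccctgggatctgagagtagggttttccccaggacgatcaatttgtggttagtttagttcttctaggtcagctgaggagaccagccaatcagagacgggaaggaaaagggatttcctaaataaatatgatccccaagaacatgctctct
Cxcl10: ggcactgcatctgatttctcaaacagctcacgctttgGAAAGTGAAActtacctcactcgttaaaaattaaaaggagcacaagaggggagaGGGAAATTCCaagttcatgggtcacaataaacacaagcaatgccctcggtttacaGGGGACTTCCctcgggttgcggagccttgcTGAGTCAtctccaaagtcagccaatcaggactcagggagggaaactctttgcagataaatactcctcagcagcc
The Cxcl10 window held 2 matches to the kappaB motif (4.6% of 27025 windows of this length hold at least 1), 1 to the AP-1 motif TGANTCA (6.87%) and 1 to the interferon-stimulated response element (3.04%). The Cxcl9 window held 1 match to TATAAA (13% of windows), and the Ccl3 window none of the 6. None of these 3 windows held the FOXO motif TGTTTAC (3.09% of windows) or the STAT motif TTCNNNGAA (7.18%). Among the 19 tested members with a window in that table, 2 held the kappaB motif (Ccl9 and Cxcl10), 3 the AP-1 motif and 0 the FOXO motif. These matches describe the letters and not binding.

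Cxcl14 and Cxcl12 made up most of the chemokine ligand reads in both groups. Cxcl14 encodes a chemokine made constitutively by epithelia including epidermis, and Cxcl12 the ligand of CXCR4 made by mesenchymal and vascular cells. Together they held 90.8, 91.3 and 92.1% of ligand CPM in knockout and 88.8, 91.7 and 91.4% in control libraries. Levels per kilobase of the longest annotated coding transcript were computed for 16 of the 17 tested ligands, without Ccl21c, which had no length. The per-kilobase level of Cxcl14 averaged 242 CPM in knockout skin and 214 CPM in control skin, and that of Cxcl12 17.4 CPM in knockout skin and 20.8 CPM in control skin. Of these 16, next came Ccl27a at 7.05 (knockout) and 7.87 (control) CPM per kilobase and Ccl6 at 5.19 (knockout) and 5.14 (control) CPM per kilobase. At the low end were Cxcl9 at 0.179 (knockout) and 0.464 (control) and Ccl28 at 0.192 (knockout) and 0.184 (control) CPM per kilobase.

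Cxcl14 stood at 408, 482 and 437 CPM in knockout and 328, 410 and 434 CPM in control libraries (log2 fold change 0.18, edgeR adjusted p = 0.779, SE 0.12). Control 1 was the lowest library, and the other 5 overlapped. Cxcl12 stood at 75.5, 99.1 and 119 CPM in knockout and 123, 112 and 117 CPM in control libraries (log2 fold change -0.26, edgeR adjusted p = 0.753, SE 0.16). The control libraries lay close together, while knockout 1 was lowest and knockout 3 was within the control range. Without knockout 1 the log2 fold change of Cxcl12 was -0.10.

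Of the other ligands of resting skin, Ccl27a, the keratinocyte ligand of CCR10, stood at 4.12, 7.28 and 6.39 CPM in knockout and 6.36, 5.73 and 7.76 CPM in control libraries. Ccl28, a second CCR10 ligand made by epithelia, stood at 0.631, 0.391 and 1.14 CPM in knockout and 0.799, 0.374 and 0.891 CPM in control libraries. The groups overlapped for both, with log2 fold changes of -0.16 (SE 0.23) and 0.05 (SE 0.48). Reads of Ccl27a can be shared by the counting model with its near-identical copy Ccl27b, listed at 0 in all libraries but control 1. Ccl25, the ligand of CCR9 best known from thymus and gut, stood at 1.55, 2.08 and 2.01 CPM in knockout and 2.61, 2.23 and 2.52 CPM in control libraries. All 3 knockout libraries lay below the control libraries, with a log2 fold change of -0.38, short of the threshold (unadjusted p = 0.106 and edgeR adjusted p = 0.728, SE 0.21).

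**Figure D2:**
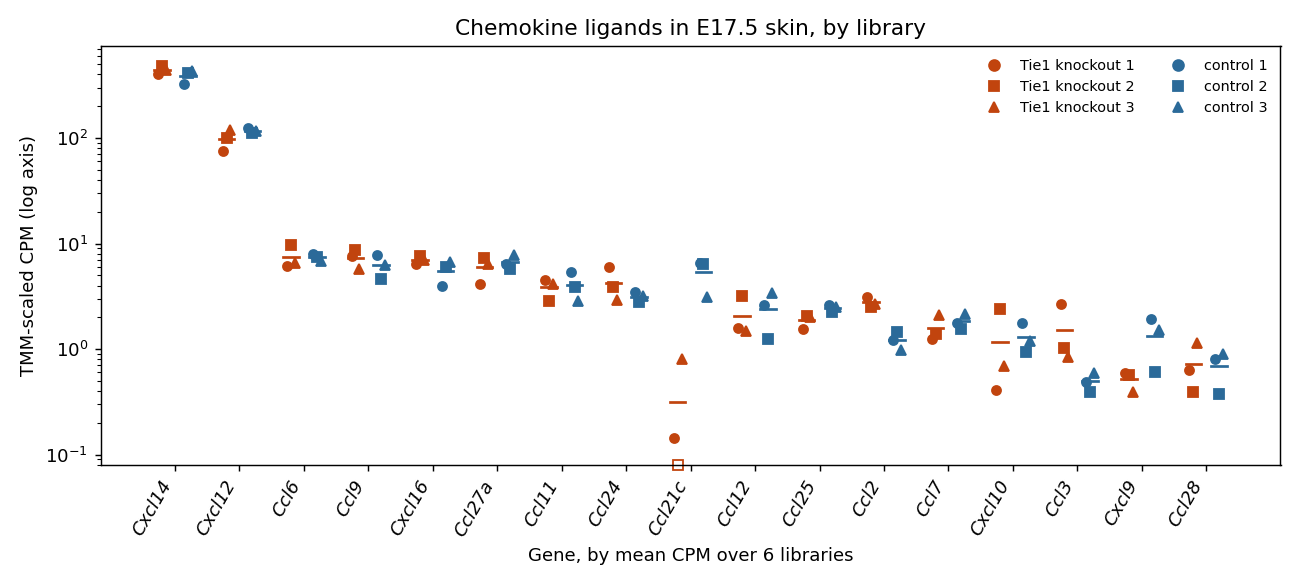
TMM-scaled CPM of the 17 tested ligands in each library (log axis), with Tie1 knockout left of control for each gene, shapes for replicate numbers and lines for group means; the open point at the bottom is a library without a read. Cxcl14 and Cxcl12 stand far above the others, and the groups are apart for Ccl2, Ccl3, Ccl21c, Cxcl9 and Ccl25.

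Ccl21c had the lowest log2 fold change of the tested ligands. CCL21 is the CCR7 ligand displayed by lymphatic endothelium, and mouse carries near-identical copies of its gene. Ccl21c (gene 65956, chromosome 4) had 2.77, 0 and 16.6 reads in knockout and 132, 128 and 63.4 reads in control libraries. Knockout 3 held most of the knockout reads and still had fewer than any control library. The log2 fold change was -3.98 (unadjusted p = 0.00237 and edgeR adjusted p = 0.221, SE 0.82), and the summed reads were 17.3-fold lower in knockout skin (95% Clopper-Pearson interval 10.9 to 29.1, counting error only). Without knockout 3 the log2 fold change was -6.02 (edgeR adjusted p = 0.117).

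Because the counting model divides reads between such copies, the value of Ccl21c depends on Ccl21a, which had 86.5, 92.8 and 392 reads in knockout and 1154, 774 and 840 reads in control libraries. Ccl21c took 3.1, 0 and 4.05% of the reads of both copies in knockout and 10.2, 14.2 and 7.02% in control libraries. With the reads of both copies summed, the log2 fold change was -2.38 (edgeR adjusted p = 0.42), a choice made after the values were seen. The libraries of the groups did not overlap for either copy or for their sum, which was 4.6, 4.6 and 20 CPM in knockout and 63.4, 44.7 and 44.6 CPM in control libraries. Of 5 lymphatic endothelial markers none passed the adjusted threshold, and their summed level was 211 to 277 CPM in knockout and 161 to 226 CPM in control libraries. Among them Prox1, the lymphatic fate regulator, had a log2 fold change of -0.94 (edgeR adjusted p = 0.273) and was lower without overlap. Lyve1, a hyaluronan receptor shared with macrophages, had a log2 fold change of 0.73 (edgeR adjusted p = 0.501) and was higher without overlap. Lyve1 was the largest part of the sum, at 162, 104 and 106 CPM in knockout and 93.8, 65.5 and 64.4 CPM in control libraries. Pdpn, Flt4 and Mmrn1 overlapped between the groups. The part of these markers in the Ccl21c difference was not tested. Ccl19, the other CCR7 ligand, had 2.86, 3 and 0 reads in knockout and none in control libraries, too few to test.

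**Figure D3:**
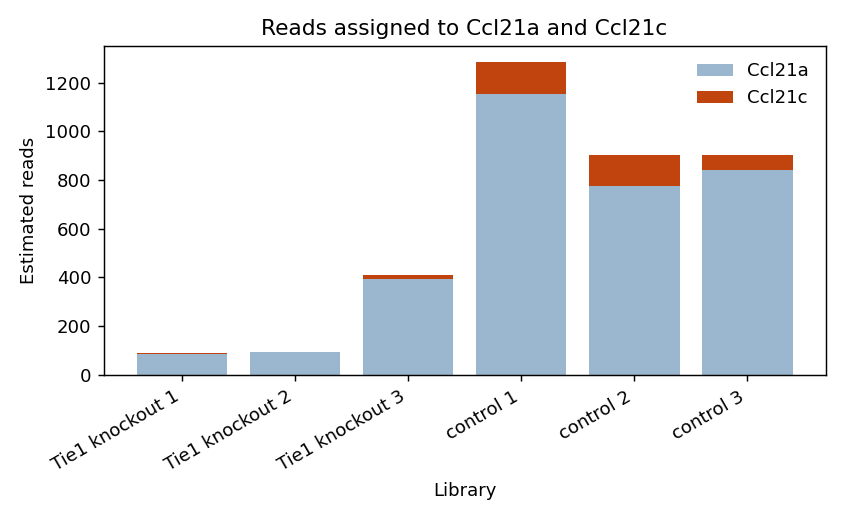
Estimated reads assigned to Ccl21a and Ccl21c in each library, stacked, Tie1 knockout libraries left of control libraries. Knockout 1 and knockout 2 have fewer than 100 Ccl21a reads, knockout 3 has 392, and all control libraries have 774 or more.

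Ccl2, which encodes the main CCR2 ligand that recruits monocytes, was higher in every knockout library than in any control library. Ccl2 lies at chr11:82035577-82037452 in GRCm38.p6. It stood at 3.14, 2.53 and 2.70 CPM (61, 51 and 55 reads) in knockout and 1.23, 1.44 and 0.987 CPM (25, 29 and 20 reads) in control libraries. Ccl2 thus averaged 2.79 ± 0.318 CPM over knockout libraries and 1.22 ± 0.225 CPM over control libraries (SD, 3 libraries each). The 2.28-fold difference (log2 fold change 1.19, SE 0.23) had an unadjusted p of 0.00103 and did not pass after adjustment in edgeR (adjusted p = 0.155), with a range of 0.028 to 0.444 over the alternatives. The log2 fold change kept between 1.05 and 1.32 with any 1 library left out and was 1.11 without knockout 1 and control 1. The summed level of 8 macrophage markers was 471 to 542 CPM in knockout and 337 to 471 CPM in control libraries, with 7 of 8 above 0 and none past the adjusted threshold, and that of 6 mast cell markers 1422 to 1450 CPM in knockout and 2190 to 2907 CPM in control libraries, with all 6 below 0. The part of these cells in the Ccl2 difference was not tested.

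In the same cluster on chromosome 11, Ccl7, Ccl12 and Ccl11 did not separate the groups. Ccl7, which starts 8.26 kb from the end of Ccl2 and also signals through CCR2, stood at 1.24, 1.39 and 2.11 CPM in knockout and 1.78, 1.54 and 2.17 CPM in control libraries (log2 fold change -0.21, edgeR adjusted p = 0.894, SE 0.28). Ccl12, a mouse CCR2 ligand, stood at 1.60, 3.17 and 1.47 CPM in knockout and 2.61, 1.24 and 3.41 CPM in control libraries (log2 fold change -0.22, edgeR adjusted p = 0.936, SE 0.44). Ccl11, the eosinophil attractant eotaxin, stood at 4.54, 2.83 and 4.13 CPM in knockout and 5.43, 3.91 and 2.86 CPM in control libraries (log2 fold change -0.09, SE 0.28). The difference between neighbours was therefore examined as a ratio within each library, chosen after the values were seen. Ccl2 reads per Ccl7 read were 2.54, 1.82 and 1.28 in knockout and 0.694, 0.935 and 0.455 in control libraries, a difference of 1.44 in mean log2 ratio (two-sided exact permutation p = 0.1, below which 3 against 3 libraries cannot go, and 0.1 adjusted over the 2 ratios computed).

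Among the macrophage-type CC ligands, Ccl3 (MIP-1 alpha, a ligand of CCR1) stood at 2.68, 1.03 and 0.834 CPM in knockout and 0.493, 0.396 and 0.592 CPM in control libraries. The groups did not overlap, but knockout 1 was well above the rest. The log2 fold change was 1.60 (unadjusted p = 0.0159 and edgeR adjusted p = 0.496, SE 0.51), and 0.92 without knockout 1. Its neighbour Ccl4 (MIP-1 beta), whose annotated span overlaps that of Ccl3, had 7.06, 8.16 and 12 reads in knockout and 2, 3 and 13 reads in control libraries and was not tested. Ccl3 itself had 51.9, 20.8 and 17 reads in knockout and 10, 8 and 12 reads in control libraries. Both genes had fractional values in knockout 1 and knockout 2, where the counting model can divide reads between them. Their summed reads were not tested. Ccl6 and Ccl9, rodent ligands of CCR1, were more abundant and overlapped. Ccl6 stood at 6.18, 9.67 and 6.58 CPM in knockout and 7.89, 7.53 and 6.76 CPM in control libraries (log2 fold change 0.02, SE 0.19). Ccl9 stood at 7.57, 8.67 and 5.73 CPM in knockout and 7.85, 4.60 and 6.32 CPM in control libraries (log2 fold change 0.23, SE 0.23). Knockout 2 was the highest library for both genes.

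CXCL9 and CXCL10 are interferon-induced ligands of CXCR3, and of these only Cxcl9 was without overlap between the groups. Cxcl9 had 11.5, 11.5 and 7.99 reads in knockout and 38.8, 12.2 and 30.5 reads in control libraries. The gap between the groups was under 1 read, between knockout 1 and control 2. The log2 fold change was -1.35 (unadjusted p = 0.0225 and edgeR adjusted p = 0.542, SE 0.47), and -0.99 without control 1. Cxcl10, 18.6 kb away, had 8, 48 and 14 reads in knockout and 36, 19 and 24 reads in control libraries (log2 fold change -0.16, edgeR adjusted p = 0.968, SE 0.63). Its highest and its lowest library were both knockout libraries, and its log2 fold change was 0.23 without knockout 1 and -1.23 without knockout 2.

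The remaining tested ligands overlapped between the groups. Ccl24 (eotaxin-2, a CCR3 ligand made by macrophages) stood at 5.93, 3.88 and 2.94 CPM in knockout and 3.45, 2.77 and 3.16 CPM in control libraries (log2 fold change 0.44, edgeR adjusted p = 0.759, SE 0.27). Cxcl16, a membrane-bound ligand of CXCR6 that also binds oxidised lipoprotein, stood at 6.39, 7.63 and 6.97 CPM in knockout and 3.96, 6.01 and 6.68 CPM in control libraries (log2 fold change 0.34, edgeR adjusted p = 0.756, SE 0.21). Control 1 was the lowest Cxcl16 library, as for Cxcl14.

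Neutrophil-attracting and lymphoid ligands were near the limit of detection. Cxcl1 had 8, 6 and 6 reads in knockout and 5, 8 and 4 reads in control libraries. Cxcl2, Cxcl3 and Cxcl5, which share CXCR2 with it, had 6.27, 11.7 and 9.02 reads, in that order of genes, summed over knockout libraries and 0, 1 and 3.03 over control libraries, and knockout 3 alone held 10.7 of the Cxcl3 reads. That library also had the highest summed neutrophil markers (19.0 CPM), most of it S100a9 (12.8 CPM) and S100a8 (5.3 CPM). Of the other neutrophil markers, Ltf had 14 reads there, Camp 5 and Ly6g 1, while Mpo and Elane had none. The part of neutrophils in the Cxcl2, Cxcl3 and Cxcl5 reads was not tested. The B cell attractant Cxcl13 had 3, 0 and 0 reads in knockout and 16, 2 and 3 reads in control libraries. The dendritic cell ligands Ccl17 and Ccl22 had 8 and 1 summed reads in knockout and 6 and 0 in control skin, Ccl5 had 14 in knockout and 10 in control skin, and Ccl20, the CCR6 ligand, had 2 in knockout and 2 in control skin. The other untested ligands (Ccl1, Ccl8, Ccl26, Ccl27b, Cxcl15 and Cxcl17) had 0 to 21.8 summed reads in either group. Where no read is observed, the count allows up to 3 expected reads, or 0.147 to 0.155 CPM. Intervals on the summed reads excluded a ratio of 1 for Cxcl3 (ratio 11.8, 1.75 to 505) and Cxcl13 (ratio 0.141, 0.0268 to 0.471). They also excluded it for Cxcl2 and Ccl19, without control reads (lower end 1.16 for both), and for Ccl27b, without knockout reads (upper end 0.682). These intervals cover counting error only. Except for Ccl19, 1 library held most reads of each of these genes.

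Among receptors Cxcr4 held most of the reads, 61.0, 67.6 and 69.6% of receptor CPM in knockout and 48.9, 58.6 and 68.5% in control libraries. CXCR4 binds CXCL12, is carried by many leukocytes and marks sprouting endothelial tip cells. Per kilobase its level averaged 31.0 CPM in knockout skin and 24.9 CPM in control skin, ahead of Ccr8 at 4.04 (knockout) and 5.10 (control) and Ccr4 at 2.50 (knockout) and 2.16 (control) CPM per kilobase. Cxcr4 (chr1:128588199-128592299 in GRCm38.p6) stood at 49.6, 56.4 and 62.1 CPM in knockout and 33.4, 43.9 and 57.7 CPM in control libraries. The groups overlapped, with control 3 between knockout 2 and knockout 3, and knockout 1 and control 1 lowest in their groups. The log2 fold change was 0.32 (edgeR adjusted p = 0.767, SE 0.20), 0.14 without control 1 and 0.53 without control 3.

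Cxcr4 was also set against its ligand within each library. Cxcl12 reads per Cxcr4 read were 1.52, 1.76 and 1.92 in knockout and 3.67, 2.55 and 2.02 in control libraries. No library of one group lay within the other, with control 3 closest to the knockout. The difference in mean log2 ratio was -0.63 (two-sided exact permutation p = 0.1, the smallest possible, 0.1 after adjustment), and the ratio was chosen after the values were seen. The ratio compares reads and not molecules, since the transcripts differ in length. Ackr3, the scavenging receptor of CXCL12, stood at 29.1, 48.1 and 25.1 CPM in knockout and 24.8, 23.4 and 26.4 CPM in control libraries (log2 fold change 0.46, edgeR adjusted p = 0.726, SE 0.24). Knockout 2 alone was far above the rest.

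**Figure D4:**
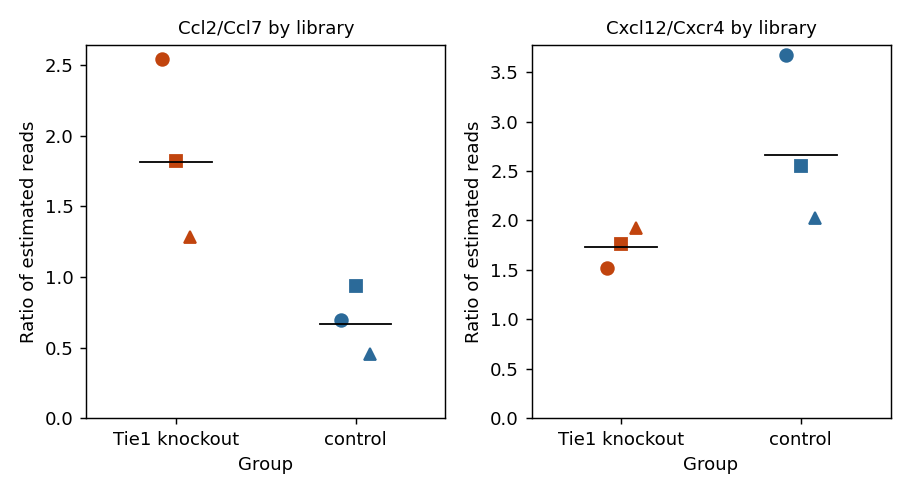
Ratio of estimated reads in each library for Ccl2 over Ccl7 (left) and Cxcl12 over Cxcr4 (right), Tie1 knockout left of control; shapes mark replicate numbers and lines the geometric group means. Ccl2 over Ccl7 is 1.28 to 2.54 in knockout and 0.455 to 0.935 in control libraries, and Cxcl12 over Cxcr4 is 1.52 to 1.92 in knockout and 2.02 to 3.67 in control libraries.

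Of Ccr1 and Ccr2, receptors of monocytes and macrophages, neither passed. Ccr2, the CCL2 receptor of monocytes, stood at 2.62, 3.23 and 3.13 CPM in knockout and 5.77, 4.68 and 2.22 CPM in control libraries (log2 fold change -0.49, edgeR adjusted p = 0.782, SE 0.34). Control 3 was the lowest library, and without it the log2 fold change was -0.80 (edgeR adjusted p = 0.404). Ccr1 stood at 2.99, 3.07 and 5.20 CPM in knockout and 5.43, 3.47 and 2.72 CPM in control libraries (log2 fold change -0.04, SE 0.33). Over the alternatives the log2 fold change of Ccr1 ranged from -0.35 to 0.42, so its direction was not stable. Both receptors overlapped between groups.

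Receptors of skin-homing T cells were detected at levels that overlapped. Ccr4, the receptor of CCL17 and CCL22, stood at 9.34, 5.90 and 5.79 CPM in knockout and 5.83, 6.19 and 6.19 CPM in control libraries (log2 fold change 0.21, SE 0.21), and its direction turned to -0.05 without knockout 1. Ccr8 stood at 6.44, 4.46 and 3.34 CPM in knockout and 7.65, 4.85 and 5.48 CPM in control libraries (log2 fold change -0.34, SE 0.28). Ccr10 stood at 0.825, 1.54 and 0.982 CPM in knockout and 0.839, 1.19 and 1.43 CPM in control libraries (log2 fold change -0.05, SE 0.34). Beside these, 6 T and NK cell markers summed to 2.64 to 4.52 CPM in knockout and 4.91 to 5.42 CPM in control libraries, and 1 of them, Nkg7, had an unadjusted p under 0.05 (log2 fold change -1.61, edgeR adjusted p = 0.297), having reached 10 reads in the control libraries only. Ccr4 and Ccr8 themselves had 68 to 181 reads per library, and the part of T cells in their levels was not tested.

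Cxcr3, the CXCL9 and CXCL10 receptor of activated T and NK cells, had 7, 9 and 22 reads in knockout and 14, 13 and 19 reads in control libraries (log2 fold change -0.26, SE 0.46). Cxcr2, the neutrophil receptor, stood at 6.44, 5.69 and 5.13 CPM in knockout and 5.64, 7.03 and 5.29 CPM in control libraries (log2 fold change -0.05, SE 0.17). Its levels overlapped and did not separate the groups. Ccr9 stood at 1.45, 1.02 and 0.491 CPM in knockout and 0.929, 0.893 and 0.791 CPM in control libraries (log2 fold change 0.18, SE 0.40). Cxcr5, of follicular lymphocytes, had 7.06, 11.1 and 13.1 reads in knockout and 10.1, 9.1 and 5.03 reads in control libraries (log2 fold change 0.38, SE 0.41). The untested receptors Ccr3, Ccr6, Ccr7, Cxcr1 and Cxcr6 had 1 to 14 summed reads in knockout and 0 to 10 in control skin, with Ccr7, the CCL21 receptor, at 14 in knockout and 10 in control skin.

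**Figure D5:**
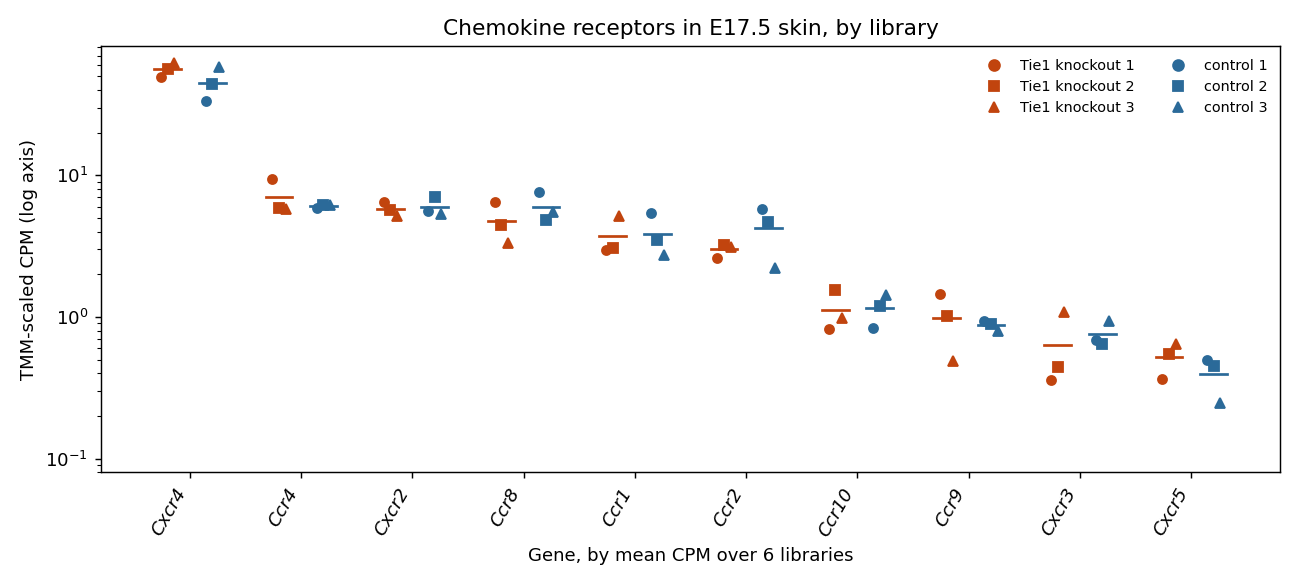
TMM-scaled CPM of 10 of the 11 tested receptors in each library (log axis), with Tie1 knockout left of control for each gene, shapes for replicate numbers and lines for group means. Cxcr4 stands well above the others, and the groups overlap for all 10 genes shown.

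Since all 11 tested receptors overlapped between the groups, no receptor could separate the groups where its ligand did. Values only are therefore given here, for pairs with a ligand that separated the groups. They come from 13 listed pairs with both partners tested. Ccl2 stood at 1.19 while Ccr2 stood at -0.49, and Ccl3 at 1.60 beside Ccr1 at -0.04 on the log2 fold change scale. Cxcl9 stood at -1.35 beside Cxcr3 at -0.26, and Ccl25 at -0.38 beside Ccr9 at 0.18.

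Of 47 further genes of the pathway 42 were tested, and 1 changed (0.159% of all genes tested). Ackr1 (chr1:173331886-173333503 in GRCm38.p6), which takes up chemokines at the surface of venular endothelium, fell to 0.618, 0.446 and 0.442 CPM in knockout libraries, against 2.07, 2.13 and 2.12 CPM in control libraries (log2 fold change -2.06, edgeR adjusted p = 0.0398, SE 0.25). It reached 10 reads in 1 knockout library and in all 3 control libraries, so it was tested through the group where it was higher. Over the alternatives its adjusted p ranged from 0.000257 to 0.289, above 0.05 with any 1 library left out, with limma-voom (0.055) and with the replicate number as a block (0.0633), while its log2 fold change lay between -2.23 and -1.98. At an unadjusted p under 0.05 there were 2 higher genes of 42 (4.07% of all genes) and 4 lower (3.33% of all genes), and the median log2 fold change was 0.00553. The other atypical receptors did not pass: Ackr2, a scavenger of inflammatory CC ligands on lymphatic endothelium, had a log2 fold change of -0.52 (SE 0.26), Ackr4, a scavenger of CCL19, CCL21 and CCL25, of 0.21 (SE 0.26), and Ccrl2 of -0.26 (SE 0.35). Of 5 lymphatic markers and 6 venular markers, 0 and 3 passed the adjusted threshold, and the venular sum was 194 to 223 CPM in knockout and 246 to 268 CPM in control libraries. Ephb4 was the largest part of the venular sum, at 136, 150 and 164 CPM in knockout and 160, 169 and 180 CPM in control libraries. Ephb4 overlapped between the groups, as did Nr2f2 (log2 fold change -0.01). Ackr1 is itself 1 of these 6 venular markers, and Selp, another that passed, reached 10 reads in control libraries only.

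None of the tested inducers of chemokines or transducers of their signals passed the adjusted threshold. Nfkbia, the NF-kappaB inhibitor that NF-kappaB itself induces, stood at 65.0, 64.5 and 54.5 CPM in knockout and 47.9, 47.1 and 49.4 CPM in control libraries, without overlap (log2 fold change 0.35, unadjusted p = 0.00378 and edgeR adjusted p = 0.275, SE 0.08). Of the 10 tested inducers and regulators 8 were above 0 (51.2% of all genes) and none passed, and Tnf, encoding an inducer of Ccl2, had a log2 fold change of 0.18 (SE 0.31). Il1b, Il6 and Ifng had too few reads to test. Of 19 signalling genes 3 had an unadjusted p under 0.05, all lower (3.33% of all genes), and Arrb1 (beta-arrestin 1) and Plcb2 had log2 fold changes of -0.34 and -0.60 (edgeR adjusted p of 0.352 for Arrb1 and 0.364 for Plcb2). Pf4, the platelet and macrophage chemokine CXCL4, stood at 65.6, 53.6 and 57.6 CPM in knockout and 52.6, 43.8 and 44.7 CPM in control libraries, without overlap (log2 fold change 0.33, unadjusted p = 0.0161 and edgeR adjusted p = 0.497, SE 0.10).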

How the data were processed

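Whole-skin RNA-seq libraries of 3 Tie1 knockout and 3 control samples were used. The authors deposited estimated counts (expected counts) per gene, not normalized, in 1 table for each library, and 31.0 to 31.9% of values were not whole. Per the submitters' processing notes, HISAT2 2.0.4, Bowtie2 2.2.5, RSEM 1.2.12 and GRCm38.p6 were used, with no roles given. Strand was not stated in the sources used here. Reads of near-identical genes (Ccl21 copies, Ccl27a and Ccl27b) are divided by such estimates, so their values are uncertain. Fractional values of Ccl3 and Ccl4, and of Cxcl2 and Cxcl3, can arise in the same way.

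Estimated counts were rounded to whole numbers, filtered at 10 reads in 3 libraries and tested with edgeR 4.0.16 (TMM scaling, quasi-likelihood test) over all 15086 genes, with Benjamini-Hochberg adjustment and a threshold of 0.05. DESeq2 1.42.0 and limma 3.58.1 (voom) were alternatives, beside other scalings, filters, a replicate block and each library left out. CPM values are TMM-scaled and fold changes are knockout over control. Ligands and receptors were named in full where tested, except 1 receptor that is counted but not reported here. Intervals on read ratios are Clopper-Pearson at 95% and cover counting error only. The fit was tested on simulated data. No 2 libraries were alike within counting noise. The members and lists were chosen with earlier results of these data known.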

Additional observations from a re-analysis of the deposited data

How the results depend on the processing

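No receptor was called in any setting, and ligands were called only with DESeq2 (1, Ccl2). Of 28 tested members 16 kept their direction in every setting that tested them, among them the 4 ligands with an unadjusted p under 0.05. Over all genes, 24 were called; the count was 38 without a filter, 212 with DESeq2, 15 with limma-voom, 54 with the replicate block, 130 without knockout 1 and control 1, and 1 to 15 with 1 library left out. Of the pathway list 1 gene was called (Ackr1), 0 with limma-voom, 0 with the replicate block, 0 without knockout 1 and control 1, where Ackr1 failed the filter, and 0 with any 1 library left out. The cause was not tested. Without knockout 1 and control 1 only Ccl2 of the ligands kept an unadjusted p under 0.05. The labels do not say whether libraries with the same replicate number have anything else in common. Each gene's group mean was subtracted from its log2 CPM, and these deviations were correlated between knockout and control libraries. Same-numbered libraries gave 0.41, 0.0382 and 0.26. Knockout 1 and knockout 3 correlated best with the control of their own number, and knockout 2 with control 3 (0.189). Genes under 10 reads in 4 or more libraries were not tested.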

Other observations

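Ppbp, which encodes the platelet chemokine CXCL7 and falls outside the symbol rule, stood at 1.29, 95.6 and 2.40 CPM in knockout and 1.09, 1.14 and 0.889 CPM in control libraries, 39.8-fold above the next library in knockout 2. The summed level of 4 platelet and megakaryocyte markers was 11.2 CPM in that library, within the 9.48 to 14.5 CPM of the knockout libraries. The same library was high in the epithelial genes Muc16 (136 CPM in knockout 2, 1.65 CPM in the next library), Krt8 (241 CPM in knockout 2, 21.9 CPM in the next library) and Krt18 (107 CPM in knockout 2, 8.76 CPM in the next library). These genes were picked after their values were seen, and no cause was tested.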
